A study of Mus musculus with 18 samples.

Results

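The genes described here are the 45 DNA replication genes of the mouse that were listed with Donson, grouped by the step of replication their proteins carry out. They were chosen by symbol from the annotation of the array, and a gene was represented by its brightest probe. The array named 17711 genes in all. Of the 45 genes, 43 had a probe under their symbol, and 35 of these were among the 7142 named genes whose signal was high enough to be tested. The tested genes made up 5 of 9 genes of origin recognition and licensing, 5 of 6 of the MCM helicase, 5 of 7 of helicase activation, 5 of 6 of the sliding clamp and its loader, 6 of 8 of the polymerases and primase, all 3 of single-strand binding, both genes of Okazaki fragment maturation and all 4 of nucleotide supply. No probe was named for Mcm3 or Gins1, and 8 genes had a probe below the signal limit.

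RNA came from the external granule cell layer dissected from the cerebellum of 18 newborn (P0) mice, 9 Ts1Cje and 9 euploid, each hybridized to its own Illumina mouse-6 v1.1 beadchip array. All mice had the strain label B6EiC3SnF1/J A/a, and no treatment was named. Ts1Cje mice carry a segmental trisomy of chromosome 16, from next to Sod1 to Zbtb21, in every cell, together with a loss of 1 copy of a short stretch of chromosome 12 where the segment is translocated. The mice came from 3 litters with 3 Ts1Cje and 3 euploid pups each, and each slide held the 6 pups of 1 litter, so the effect of a litter and that of its slide cannot be told apart. For 2 euploid mice of litter 2 the source label names cerebellum although their tissue label names the dissected layer. Values are log2 signals on a scale where each array has the same mean.

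Cells copy their DNA once in each division. In G1 phase the origin recognition complex marks origins, and Cdc6 and Cdt1 load the ring-shaped MCM helicase there. In S phase Cdc45 and the GINS complex join MCM to form the active helicase, a step in which the Donson protein takes part, and the clamp, its loader and the polymerases follow behind. In the newborn cerebellum the outer part of the external granule cell layer holds granule cell precursors that divide under Sonic hedgehog signalling, and the inner part holds granule cells that have left the cell cycle. Transcription of many replication genes is under the control of E2F factors at the G1/S transition.

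Donson was the only member of the list that lies in the segment present in 3 copies, and the only one whose 95% interval for the ratio of Ts1Cje to euploid excluded 1. Its log2 signal ran from 8.11 to 8.73 with a median of 8.40 in the 9 Ts1Cje mice. In the 9 euploid mice it ran from 7.64 to 8.31 with a median of 7.94. The groups overlapped, since 2 of the 9 Ts1Cje mice were below the highest euploid mouse, whereas within each of the 3 litters all 3 Ts1Cje mice were above all 3 euploid mice. The mean was 8.41 ± 0.19 in Ts1Cje and 7.99 ± 0.22 in euploid mice (SD, n = 9 each), a difference of 0.43 ± 0.09 on the log2 scale (SE) and a ratio of 1.34 with an interval from 1.17 to 1.54.

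The adjusted p of Donson was 0.0501 (limma, Benjamini-Hochberg over all tested probes), so that Donson missed the threshold of 0.05 by a narrow margin. With litter as a block in the same model it passed, with an adjusted p of 0.0101, and so did 0.593% of all probes. For the single gene, the exact two-sided permutation test over all 48620 splits of the mice into 9 and 9 gave p = 0.000658, where the smallest p possible is 4.1e-05. The ratio was 1.30 in litter 1, 1.55 in litter 2 and 1.20 in litter 3, and the interaction of genotype and litter had an unadjusted p of 0.162. The interval held 1.5, the ratio of the copy numbers. A dimmer second probe of Donson, below the limit for testing, had a mean of 6.59 in Ts1Cje and 6.28 in euploid mice, a ratio of 1.24.

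**Figure D1:**
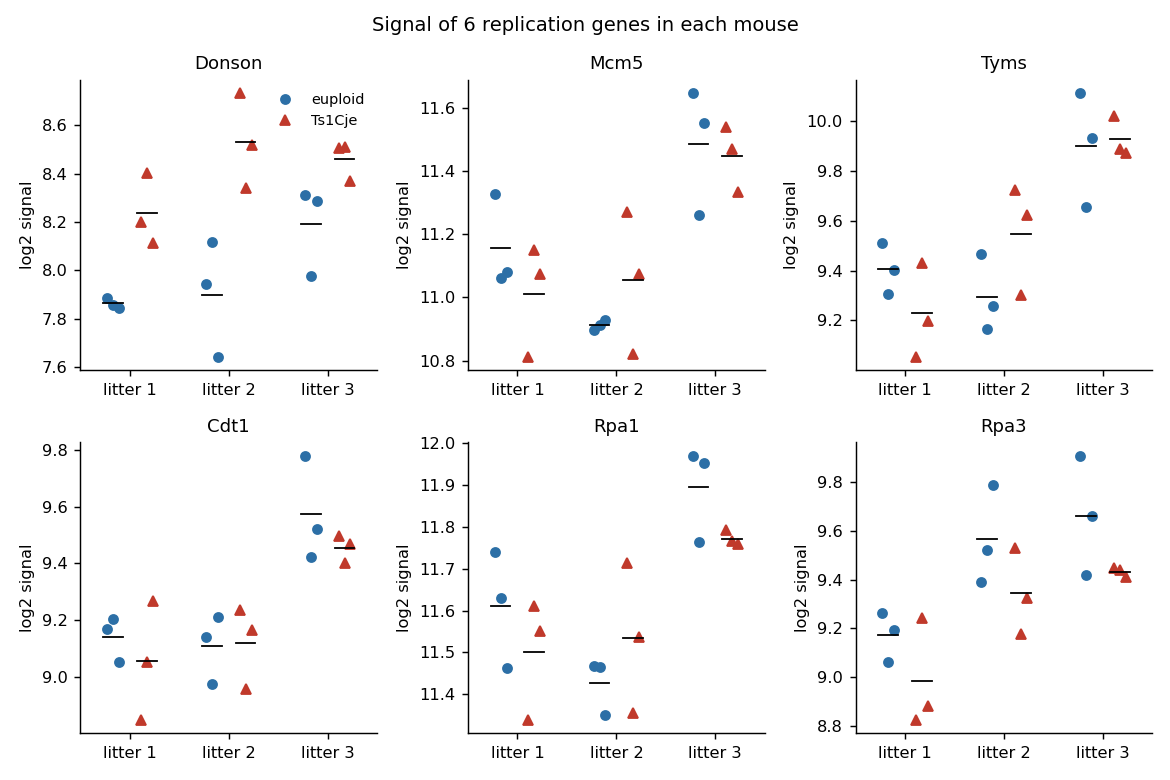
Log2 signal of Donson, Mcm5, Tyms, Cdt1, Rpa1 and Rpa3 in each of 18 mice, by litter (x axis) and genotype (circles euploid, triangles Ts1Cje), with a line at the mean of 3 mice. Donson is higher in the Ts1Cje mice within each litter, and the other genes are highest in litter 3 in both genotypes.

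The ratio of Donson lay inside the range of the other genes of the segment. By RefSeq order 27 tested genes lie from Sod1 to Zbtb21, and the median of their ratios was 1.37. For 26 of them the ratio ran from 1.26 for Itsn1 to 1.59 for Kcnj6, a potassium channel gene. The probes of Sod1 differed, with a ratio of 0.983 for its brightest probe, which stands for the gene here, and of 1.62 for a second probe below the signal limit (adjusted p = 9.97e-05 with all probes fitted). Donson ranked 19 among the 27 from the highest ratio downwards, and 21 of the 27 passed the threshold. Its neighbours among the tested genes, Son and Cryzl1, had ratios of 1.48 and 1.40. Mcm4 and Rfc4 also lie on chromosome 16 but outside the segment, and their ratios were 0.956 and 0.908.

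To show the sequence around which these genes begin, the 250 bases before the annotated start were taken from RefSeq (GRCm38.p6), where 37 of the 45 genes were listed. They were searched on both strands for the E2F-type motifs TTCCCGC and TTGGCGC and for the CCAAT box. An E2F-type motif was present before a listed start of 13 of the 37 replication genes (35.1%), compared with 6.45% of 27025 genes in all. A CCAAT box was present for 23 of 37 (62.2%), compared with 37.5% of all genes, and no CCAAT box lay in the Donson window. These are matches of letters and not shown sites of binding. The windows of Donson, of Mcm5 as a member that followed the others closely, and of Rpa3 as the member with the lowest ratio in Ts1Cje mice are given 5′ to 3′ on the strand of the gene, with the E2F-type motif in capitals.
Donson, chr16:91688729-91688978, minus strand: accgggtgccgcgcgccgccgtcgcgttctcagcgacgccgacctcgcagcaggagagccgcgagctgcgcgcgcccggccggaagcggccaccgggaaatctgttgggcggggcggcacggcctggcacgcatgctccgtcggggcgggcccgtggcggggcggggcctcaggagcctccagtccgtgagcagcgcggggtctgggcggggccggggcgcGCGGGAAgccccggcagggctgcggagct
Mcm5, chr8:75109259-75109508, plus strand: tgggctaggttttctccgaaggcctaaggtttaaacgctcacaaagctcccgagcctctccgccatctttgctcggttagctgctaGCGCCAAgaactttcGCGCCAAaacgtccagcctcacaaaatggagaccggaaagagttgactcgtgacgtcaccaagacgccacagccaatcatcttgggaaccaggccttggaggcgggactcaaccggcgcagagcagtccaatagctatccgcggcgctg
Rpa3, chr6:8259142-8259391, minus strand: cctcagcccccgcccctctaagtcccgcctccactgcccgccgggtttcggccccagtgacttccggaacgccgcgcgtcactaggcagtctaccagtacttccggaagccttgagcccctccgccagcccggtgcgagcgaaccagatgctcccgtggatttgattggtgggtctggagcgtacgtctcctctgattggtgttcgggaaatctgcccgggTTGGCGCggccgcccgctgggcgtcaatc
The motif began 29 bases before the start in Donson and in Rpa3, and Mcm5 had a pair of motifs, at 164 and 149 bases before it.

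None of the 35 tested members passed the threshold between Ts1Cje and euploid mice, and 0.336% of all tested probes did. At an unadjusted p below 0.05 only Donson was counted, and 3.95% of all probes were. With litter as a block Rpa3 and Pold1 also stood below it, 3 members in all beside 7.13% of all probes. The methods' t-test on linear signals also called 0 members. Of the 34 tested members with 2 copies, 29 had a lower and 5 a higher mean in Ts1Cje mice, and their median log2 difference was -0.06, compared with 0.00 for the 7142 named genes tested. Their ratios ran from 0.862 for Rpa3 to 1.02 for Tyms, with adjusted p-values from 0.998 to 0.999. All 34 intervals held 1, and their outer bounds were 0.728 and 1.25 (limma, n = 9 against 9), and a ratio of 1.5 was outside each interval. The SE ran from 0.06 to 0.14 on the log2 scale over the 35 members.

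After Donson the smallest p-values belonged to Pold1, Rpa3, Gins3 and Orc3. Pold1, the catalytic subunit of polymerase delta, ran from 9.98 to 10.52 (median 10.18) in Ts1Cje and from 10.07 to 10.68 (median 10.42) in euploid mice. Rpa3, the small subunit of the single-strand binding protein RPA, ran from 8.82 to 9.53 (median 9.32) in Ts1Cje and from 9.06 to 9.91 (median 9.42) in euploid mice. For both genes the ranges overlapped. The log2 difference of Rpa3 was -0.21 ± 0.12 (SE) and lay between -0.19 and -0.23 in each of the 3 litters, and its adjusted p was 0.998 without and 0.422 with litter as a block. That of Pold1 was -0.15 ± 0.08, and it was -0.20 in litter 1, -0.10 in litter 2 and -0.16 in litter 3.

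Gins3, a subunit of the GINS complex, is close to the signal limit. It ran from 6.78 to 7.40 (median 7.16) in Ts1Cje and from 7.03 to 7.57 (median 7.28) in euploid mice, a difference of -0.16 ± 0.09 (SE). Orc3, a subunit of the origin recognition complex, ran from 7.05 to 7.44 (median 7.30) in Ts1Cje and from 7.17 to 7.50 (median 7.42) in euploid mice, a difference of -0.09 ± 0.06. In neither gene were the groups apart. A dimmer second probe of Orc3, below the signal limit with a mean of 5.76, had a difference of -0.11. With all probes fitted its unadjusted p was 0.0113 and its adjusted p 0.965 (limma).

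**Figure D2:**
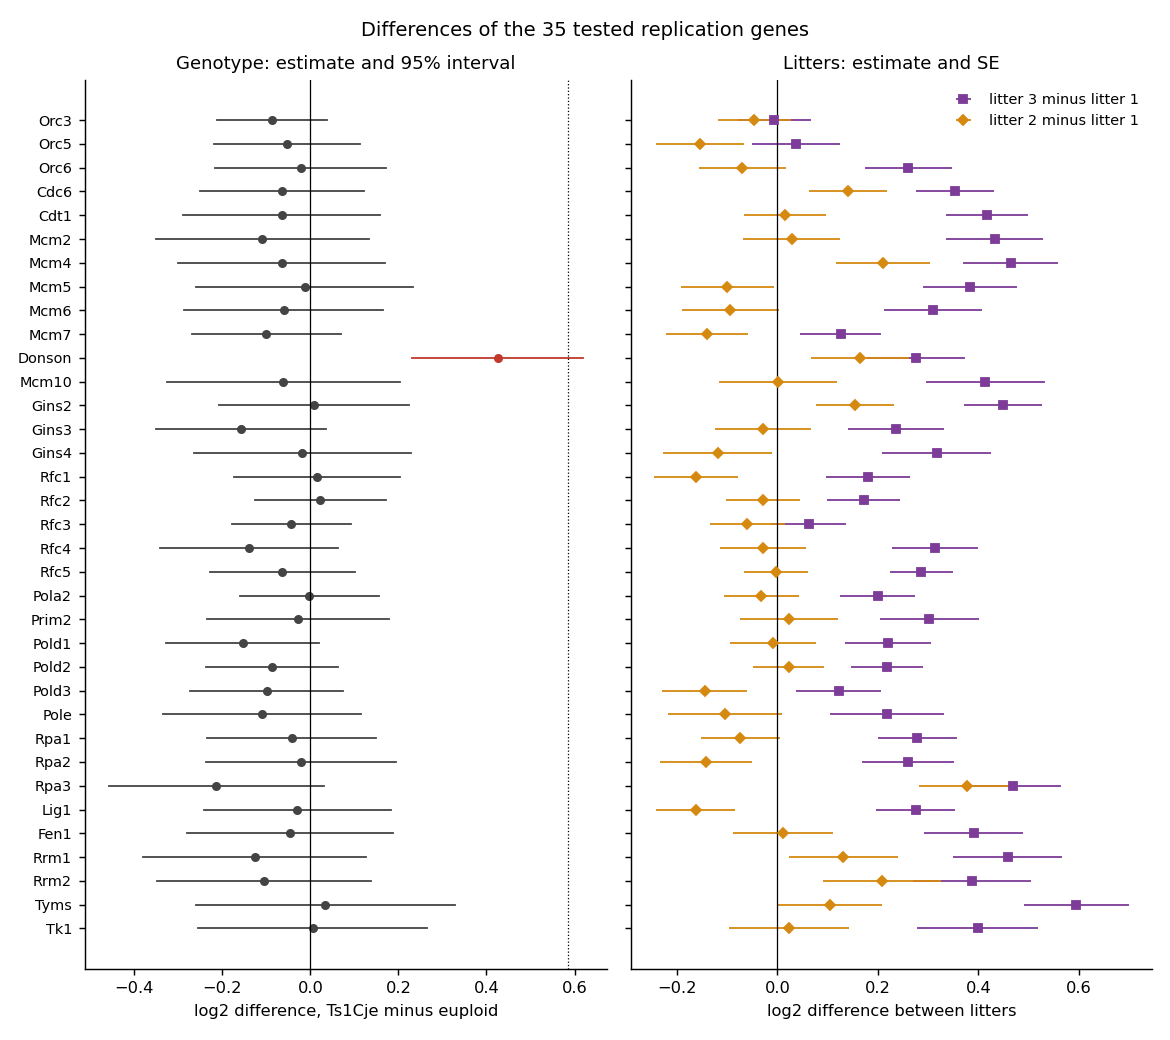
Left, log2 difference of Ts1Cje minus euploid mice with its 95% interval (limma, 9 mice a group) for each of the 35 tested members in the order of their steps in replication, with Donson in red and a dotted line at a ratio of 1.5. Right, log2 difference of litter 3 (squares) and of litter 2 (diamonds) from litter 1 with SE (6 mice a litter); Donson stands alone on the left, and on the right the squares lie above 0 for 34 of 35 members.

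Between litters the members differed widely. With genotype in the model, 26 of 35 members passed the F test of litter at an adjusted p below 0.05 (limma), and 28.2% of all tested probes did. The mean of litter 3 was the highest of the 3 litters for 34 of 35 members, Orc3 being the exception. Litter 3 was higher than litter 1 for 24 members, with 15.3% of all probes called in that direction, and higher than litter 2 for 21, with 12.0% of all probes. No member was called lower in litter 3 than in litter 1 or than in litter 2, and 11.9% and 2.62% of all probes were. Litter 2 was higher than litter 1 for Rpa3 alone, with 1.19% of all probes called in that direction.

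The median log2 difference of litter 3 from litter 1 was 0.29 over the 35 members and 0.04 over all named genes tested, and from litter 2 it was 0.29 and 0.10. For 11 members each of the 6 mice of litter 3 was above each of the 6 mice of litter 1, as was so for 6.65% of all probes. The p-values measure the spread between mice of a litter, and no litter was run on more than 1 slide. In bulk RNA, more cells of a type and more RNA per cell cannot be told apart.

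The 5 members with the smallest p for litter were Tyms, Gins2, Cdt1, Lig1 and Mcm5. Tyms, thymidylate synthase, which makes the thymidine nucleotide for DNA, ran from 9.05 to 9.51 (median 9.36) in litter 1, from 9.16 to 9.72 (median 9.38) in litter 2 and from 9.66 to 10.11 (median 9.91) in litter 3. All 6 mice of litter 3 were above litter 1, and 5 of them above litter 2. Tyms was 1.51-fold higher in litter 3 than in litter 1 (log2 difference 0.60 ± 0.10, SE, adjusted p = 0.000484).

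Gins2, a second subunit of GINS, ran from 8.94 to 9.06 (median 9.02) in litter 1, from 8.96 to 9.37 (median 9.16) in litter 2 and from 9.26 to 9.64 (median 9.46) in litter 3. Litter 1 was narrow and lay wholly below litter 3, and the ratio of litter 3 to litter 1 was 1.36 (adjusted p = 0.000459). Cdt1, the licensing factor that brings MCM to origins, ran from 8.85 to 9.27 (median 9.11), from 8.96 to 9.24 (median 9.15) and from 9.40 to 9.78 (median 9.48) in litters 1, 2 and 3. Litter 3 lay wholly above both other litters, with a ratio to litter 1 of 1.33 (adjusted p = 0.00123).

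Lig1, the ligase that seals Okazaki fragments, ran from 9.46 to 9.80 (median 9.66), from 9.27 to 9.71 (median 9.50) and from 9.74 to 10.03 (median 9.97) in litters 1, 2 and 3. Mcm5, a subunit of the MCM ring, ran from 10.81 to 11.33 (median 11.08), from 10.82 to 11.27 (median 10.92) and from 11.26 to 11.65 (median 11.51). For both genes 5 of 6 mice of litter 3 were above all of litter 1. The log2 difference of litter 3 from litter 1 was 0.28 ± 0.08 for Lig1 (adjusted p = 0.0146) and 0.38 ± 0.09 for Mcm5 (SE, adjusted p = 0.00547).

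**Figure D3:**
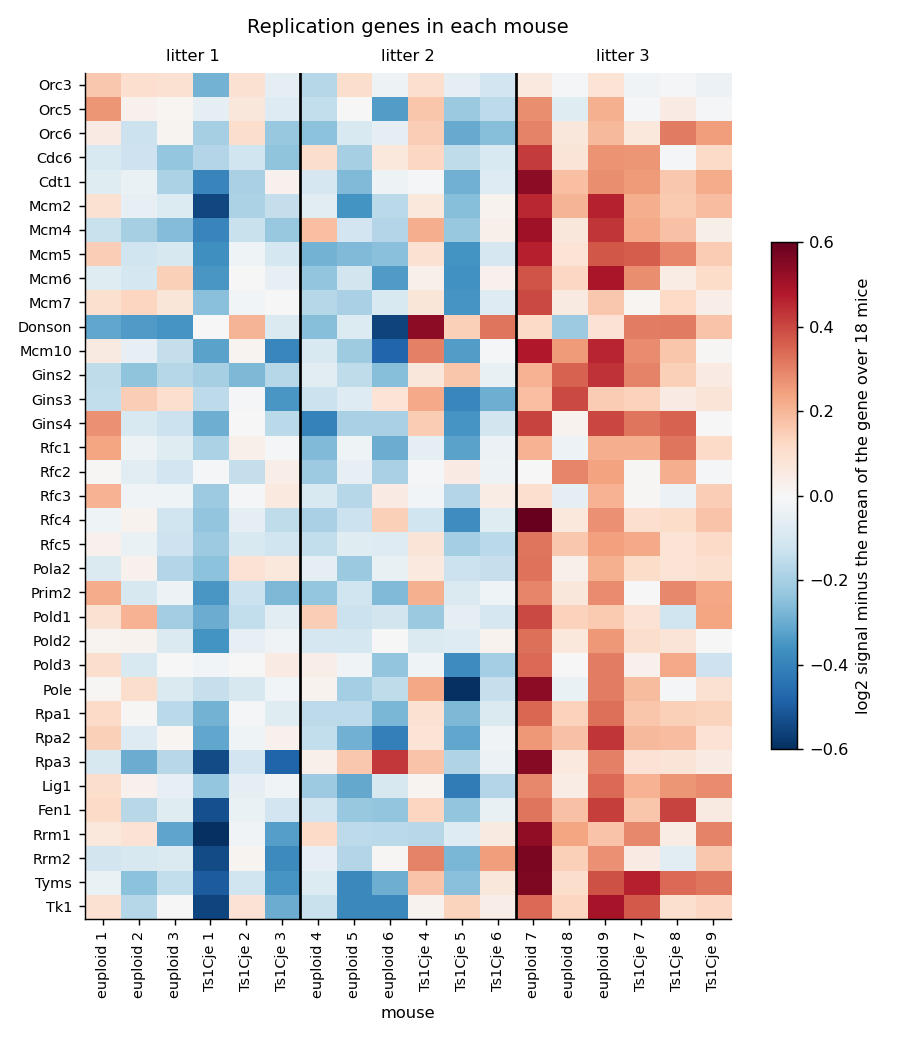
Log2 signal of the 35 tested members (rows, in the order of the steps of replication) in each of 18 mice (columns, by litter and genotype), minus the mean of the gene over the 18 mice; colours end at 0.6 in either direction. Litter 3 is high across nearly all rows, Ts1Cje 1 of litter 1 is low across most, and the row of Donson follows genotype within litters.

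By step, the F test called 5 of 5 tested MCM genes, 3 of 3 RPA genes, both genes of Okazaki fragment maturation (Lig1 and the flap endonuclease Fen1) and 4 of 4 genes of nucleotide supply, in which Rrm1 and Rrm2 encode ribonucleotide reductase and Tk1 thymidine kinase. It called 3 of 5 genes of licensing (Orc6, Cdc6, Cdt1), 3 of 5 of helicase activation (Mcm10, Gins2, Gins4), 3 of 5 of the clamp loader (Rfc1, Rfc4, Rfc5) and 3 of 6 of the polymerases and primase (Pola2, Prim2, Pold2). Over all tested probes the F test called 28.2%. The 9 members that were not called were Orc3, Orc5, Donson, Gins3, Rfc2, Rfc3, Pold1, Pold3 and Pole. For Donson the F test had an adjusted p of 0.0916, while its difference of litter 3 from litter 1, 0.28 ± 0.10 on the log2 scale, had an adjusted p of 0.0419. By group the median log2 difference of litter 3 from litter 1 ran from 0.18 for the clamp loader to 0.43 for nucleotide supply.

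The brightest members were Rpa1, Mcm4, Mcm5 and Rrm1. Rpa1, the large subunit of RPA, had a mean log2 signal of 11.62. It ran from 11.34 to 11.74 in litter 1, from 11.35 to 11.71 in litter 2 and from 11.76 to 11.97 in litter 3, and litter 3 lay wholly above the others, with a ratio to litter 1 of 1.21 (adjusted p = 0.0136). Mcm4, a further MCM subunit, ran from 10.91 to 11.17 (median 11.09), from 11.08 to 11.53 (median 11.26) and from 11.34 to 11.81 (median 11.51), with a ratio of 1.38 (adjusted p = 0.00162). Litter 2 of Mcm4 lay between the others and overlapped litter 3. Rrm1, the large subunit of ribonucleotide reductase, ran from 10.01 to 10.76 (median 10.50), from 10.50 to 10.78 (median 10.55) and from 10.71 to 11.20 (median 10.93), with a ratio of 1.37 (adjusted p = 0.00457).

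Between genotypes the ranges of these 4 genes overlapped. Rpa1 ran from 11.34 to 11.79 in Ts1Cje and from 11.35 to 11.97 in euploid mice, Mcm4 from 10.91 to 11.53 and from 11.05 to 11.81, Mcm5 from 10.81 to 11.54 and from 10.90 to 11.65, and Rrm1 from 10.01 to 10.97 and from 10.35 to 11.20. In each of them the highest mouse was euploid 7 of litter 3 and the lowest was Ts1Cje 1 of litter 1. The same mice thus set the ends in all 4 genes, and they differ in litter as well as genotype.

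Of the members tested, 10 had further tested probes, 14 in all. None of the 14 had an unadjusted p below 0.05 for genotype, and in all 14 the mean was higher in litter 3 than in litter 1. For Gins2 the log2 differences of litter 3 from litter 1 were 0.45, 0.30 and 0.34 over its 3 tested probes, and for Rfc2, a clamp loader subunit, they were 0.17, 0.29 and 0.34. For Tyms they were 0.60, 0.56 and 0.06, so that the dimmest of its 3 tested probes stayed near 0.

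The 8 genes below the signal limit were Orc1, Orc2, Orc4, the licensing inhibitor Gmnn, Cdc45, the clamp gene Pcna, Pola1 and Prim1. Their mean log2 signals ran from 5.48 for Orc1 to 6.93 for Pcna, and the lowest mean of a tested probe was 7.14. They were fitted with all probes and no limit. Pcna ran from 6.68 to 7.16 (median 6.96) in Ts1Cje and from 6.72 to 7.12 (median 6.89) in euploid mice, and Cdc45 from 6.53 to 7.14 (median 6.88) and from 6.34 to 7.24 (median 6.74). Over the 8 genes the log2 difference of Ts1Cje from euploid mice lay between -0.04 and 0.07, with no unadjusted p below 0.05, and at this level of signal a difference may not be detectable. Cdc45 had the largest difference of litter 3 from litter 1 among them, 0.31, in the direction of the tested members. It was not called (adjusted p = 0.0682, limma with all probes fitted). Orc1, Orc4 and Pola1 differed the other way, by -0.11, -0.08 and -0.04.

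The difference between genotypes did not pass a test of change between litters for any of the 35 members, nor did it for more than 0.0442% of all probes. At an unadjusted p below 0.05 stood Prim2, the large primase subunit, Tk1 and Gins2, 3 of 35 members beside 7.92% of all probes (limma). The mean over the 34 members with 2 copies was lower in Ts1Cje mice by 0.13 in litter 1 and by 0.12 in litter 3 and higher by 0.07 in litter 2 on the log2 scale. That mean ran from 9.14 to 9.61 in Ts1Cje and from 9.29 to 9.81 in euploid mice. It ran from 9.14 to 9.49 in litter 1, from 9.22 to 9.52 in litter 2 and from 9.55 to 9.81 in litter 3, without overlap between litter 3 and the others.

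Over the 18 mice the members moved together. The median Pearson r over the 595 pairs of tested members was 0.67, and over all pairs of the 7142 named genes it was 0.24. With the mean of each genotype in each litter removed, which takes out litter and genotype, the medians were 0.52 and 0.31, and 88.1% of the pairs of members and 81.1% of all pairs were above 0. These values have no p, since the signals of a mouse share its dissection, labelling and array. The median r over pairs of members, with genotype means removed, was 0.59 within litter 1, 0.46 within litter 2 and 0.60 within litter 3, with 6 mice each. Within litters no median over all pairs of genes is given, so these values have no background beside them.

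After the same removal Mcm5 (r = 0.96), Rpa1 (r = 0.93), Tyms (r = 0.90), Mcm4 (r = 0.88) and Mcm2 (r = 0.85) followed the mean of the other members with 2 copies most closely. Donson followed it with r = 0.67 (Spearman 0.67), beside 0.34 on the signals themselves, where genotype enters. The brightest probes of Rfc2 and Gins2 ran the other way, with r = -0.43 and r = -0.21. Their log2 differences of litter 3 from litter 1 were 0.17 (limma, adjusted p = 0.0862, not called) and 0.45. Correlations of the dimmer tested probes of Rfc2 and Gins2 are not given. Gins3 and Pold1 had r values of 0.17 and 0.19. For Rfc2 the sign was the same within each litter, with r = -0.21, -0.45 and -0.62 in litters 1, 2 and 3, and for Gins2 it was -0.22, -0.32 and -0.14.

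**Figure D4:**
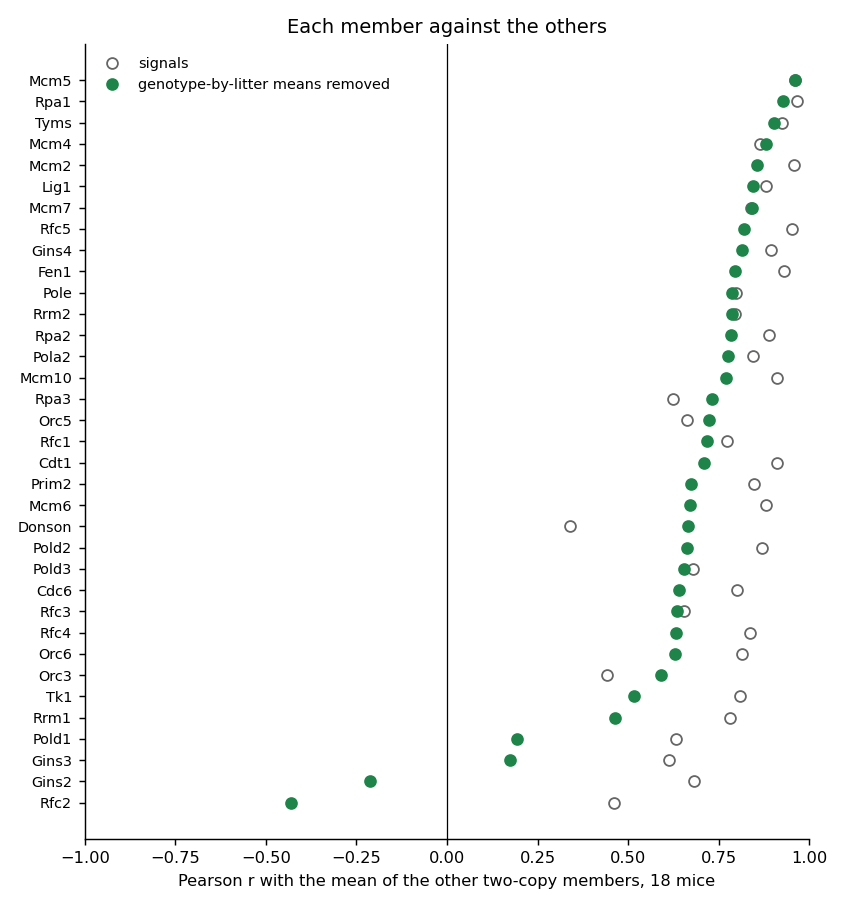
Pearson r over 18 mice of each tested member with the mean of the other members with 2 copies, on the log2 signals (open circles) and with the genotype-by-litter means removed (filled circles). Most members lie above 0.5 on both. The brightest probes of Rfc2 and Gins2 fall below 0 once the means are removed, and Donson moves up from 0.34 to 0.67.

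Among the named genes outside the list, those whose signal most resembled the mean of the tested members after removal of these means were Ebna1bp2, a ribosome biogenesis gene (r = 0.96), E2f1, the G1/S transcription factor (r = 0.95), Qdpr, dihydropteridine reductase (r = 0.95), Lbr, the lamin B receptor (r = 0.93), and A430005L14Rik (r = 0.93), over 18 mice. Those most opposed were Sla (r = -0.71), Dlgap4 (r = -0.71), Myo5b (r = -0.70), Pkd1l2 (r = -0.70) and Camk2n1 (r = -0.69). Dlgap4 and Camk2n1 encode synaptic proteins of neurons, a postsynaptic scaffold and an inhibitor of CaM kinase, with log2 differences of litter 3 from litter 1 of -0.47 and -0.34, where Camk2n1 did not pass the F test (adjusted p = 0.0771). Pkd1l2 had a raw r of 0.01 and Myo5b one of -0.47, both with log2 signals below 7.4.

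Other genes of the cell cycle were counted in the same fits. Of 37 further replication genes 21 were tested, with 0 called for genotype and 7 for litter, beside 28.2% of all tested probes called for litter, and with a median difference of litter 3 from litter 1 of 0.13 on the log2 scale. In that comparison 6 were higher and 1 was lower in litter 3. The lower gene was Supt16, a subunit of the FACT histone chaperone, with a difference of -1.01 ± 0.32 (SE, adjusted p = 0.0266), named after its value was seen. Rnaseh2b, a subunit of the RNase H that removes ribonucleotides from DNA, was higher in litter 3 by 0.39 (adjusted p = 0.000524), and Clspn, the checkpoint mediator claspin, by 0.43 (adjusted p = 0.00794). Of the 10 genes of chromatin replication 8 were tested. There Chaf1b, a subunit of the CAF-1 histone chaperone that also lies in the segment with 3 copies, was 1.43-fold higher in Ts1Cje mice (adjusted p = 0.0116), and its partner Chaf1a, with 2 copies, had a log2 difference of -0.04 ± 0.10 (SE, adjusted p = 0.998). For litter 5 of the 8 were called, among them Uhrf1, the maintenance methylation factor (0.48, adjusted p = 0.000535), and the histone chaperone Asf1b (0.57, adjusted p = 0.000979).

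Of 15 regulators of the G1/S transition 8 were tested, with 0 called for genotype and 4 for litter: E2f1, E2f2, E2f3 and Cdk2. Of all tested probes 0.336% were called for genotype and 28.2% for litter. E2f2 was higher in litter 3 than in litter 1 by 0.66 (adjusted p = 0.00169), while E2f1 had a difference of 0.22 (adjusted p = 0.119). Of 23 mitosis genes 16 were tested, with 0 called for genotype and 14 for litter, beside the same shares of all probes. Their median difference of litter 3 from litter 1 was 0.40. Tpx2, a spindle assembly factor, was higher by 0.48 (adjusted p = 0.000250), the mitotic kinases Aurka by 0.57 (adjusted p = 0.000497) and Plk1 by 0.51 (adjusted p = 0.000625), each with all 6 mice of litter 3 above litter 1. The mean signal of the mitosis genes followed that of the replication genes over the 18 mice with r = 0.95, and with r = 0.91 after the means were removed.

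Markers of the layer and of other cells were read beside these differences. Of 14 markers of granule cell precursors 10 were tested. The defining genes Atoh1, Mycn and Gli1 lay below the limit with means of 5.69, 5.52 and 5.40. The list rests here on genes such as Ccnd2 (12.61), Ccnd1 (12.40), Meis1 (10.55) and Ptch1 (9.53). Ccnd1 and Ccnd2 encode cyclins, so the list is not a reading of precursors apart from the cell cycle. The mean of the 10 ran from 10.50 to 10.62 in litter 1, from 10.32 to 10.72 in litter 2 and from 10.53 to 10.76 in litter 3, and its correlation with the mean of the replication genes was 0.57. The F test of litter called 5 of the 10, beside 28.2% of all tested probes. Between litters 3 and 1 Ccnd2 (0.37) and Ccnd1 (0.35) were higher and Pax6 (-0.26) and Barhl1 (-0.24) lower in litter 3. Between litters 3 and 2 none of these was called, with differences of 0.265, 0.315, -0.08 and 0.02. For 10 of 13 markers of postmitotic granule cells the mean ran from 10.97 to 11.16, from 10.66 to 11.13 and from 10.77 to 11.02. Of the 10, 3 were lower in litter 3 than in litter 1, beside 11.9% of all probes. Among them were Map2 (log2 difference -0.84, adjusted p = 2.1e-05) and Dcx (-0.26, adjusted p = 0.0260). The median difference of the 10 was -0.21 for litter 2 from litter 1 and 0.06 for litter 3 from litter 2. Map2 was already lower in litter 2 than in litter 1 (-0.50, adjusted p = 0.00768). Litter 3 differed from litter 2 by -0.34 for Map2 (adjusted p = 0.0342) and by -0.05 for Dcx (adjusted p = 0.710).

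Astroglial genes moved with litter as well, with 4 of 5 tested (of 10) called higher in litter 3 than in litter 1, beside 15.3% of all probes. Aqp4, the astrocyte water channel, was higher by 1.25 (adjusted p = 2.9e-06). The astroglial mean ran from 9.44 to 9.94 in litter 1, from 9.46 to 10.03 in litter 2 and from 10.09 to 10.73 in litter 3. For 7 of 10 endothelial genes the means ran from 8.21 to 8.86, from 8.24 to 8.83 and from 8.65 to 9.51. All 7 were called higher in litter 3 than in litter 1, beside the same share of all probes. For 4 of 11 meningeal genes the means ran from 7.33 to 9.56, from 7.34 to 9.58 and from 7.62 to 10.57, with Igf2 and Slc6a13 called. The choroid plexus was read on 2 of 5 genes, with Ttr higher by 3.10 (adjusted p = 0.00429) and Otx2 not called, and their mean ran from 6.17 to 7.78, from 6.51 to 8.73 and from 6.90 to 10.81.

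Of the remaining lists, the tests between litters 3 and 1 called 1 of 6 Purkinje cell genes, Foxp2 (-0.54, adjusted p = 0.000236). They called 1 of 4 interneuron genes, Ptf1a (0.61, adjusted p = 0.0347), which did not pass the F test of litter (adjusted p = 0.0798). Sox10 was the 1 called of 5 oligodendrocyte lineage genes (0.54, adjusted p = 0.00311), and 0 of 3 erythroid genes were called. Of all probes 15.3% were called higher and 11.9% lower in litter 3 than in litter 1. Purkinje cell genes (6 of 10 tested) ran as a mean from 10.17 to 10.45, from 10.05 to 10.51 and from 10.07 to 10.41, interneuron genes (4 of 6) from 9.89 to 10.20, from 9.85 to 10.46 and from 9.97 to 10.34, oligodendrocyte lineage genes (5 of 6) from 7.99 to 8.12, from 7.88 to 8.28 and from 8.12 to 8.42, and erythroid genes (3 of 9) from 11.69 to 12.61, from 12.17 to 12.81 and from 11.71 to 12.82. None of 8 microglial markers was tested. The part of these cells in the litter difference of the replication genes was not tested. With the genotype-by-litter means removed, the mean of the replication genes correlated with that of granule cell precursor genes at r = 0.55. That list holds the cyclin genes Ccnd1 and Ccnd2. The r was 0.15 for postmitotic granule cell, 0.14 for astroglial, 0.48 for endothelial and 0.61 for meningeal genes. For Purkinje cell, interneuron, oligodendrocyte lineage, choroid plexus and erythroid genes it was 0.48, 0.03, 0.06, -0.52 and 0.37.

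Between genotypes, the medians of the log2 difference were 0.27 for astroglial, 0.38 for endothelial and 1.05 for meningeal genes. Of these genes 0 were called, beside 0.336% of all probes. With litter as a block Aqp4, Vwf and Slco1c1 were called, beside 0.593% of all probes. The median was 0.07 for granule cell precursor, 0.12 for oligodendrocyte lineage and 0.22 for erythroid genes. It was -0.02 for postmitotic granule cell, -0.03 for Purkinje cell, -0.02 for interneuron and -0.20 for choroid plexus genes. For the replication genes with 2 copies it was -0.06.

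**Figure D5:**
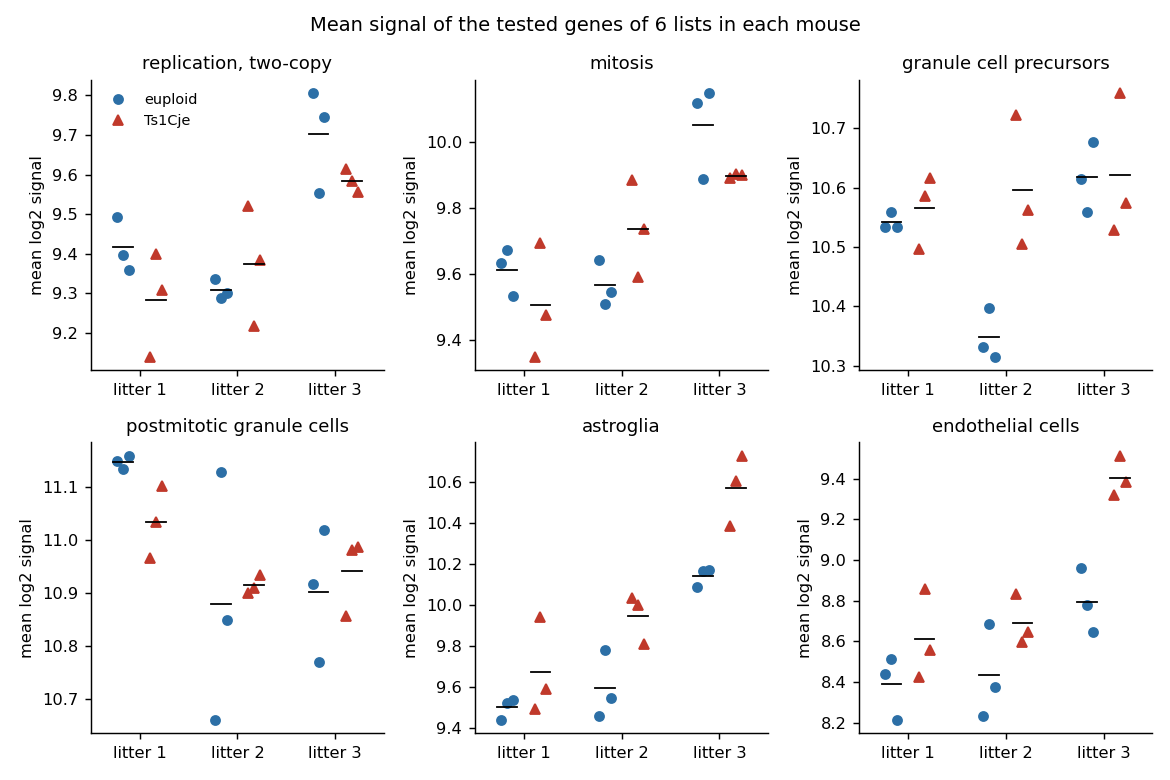
Mean log2 signal over the tested genes of 6 lists in each of 18 mice, by litter (x axis) and genotype (circles euploid, triangles Ts1Cje), with a line at the mean of 3 mice; each panel has its own scale. Replication, mitosis and astroglial genes are highest in litter 3, without overlap with the other litters. Endothelial and granule cell precursor genes also have their highest mean in litter 3, but with overlap, and the postmitotic list overlaps between litters.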

How the data were processed

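RNA of the external granule cell layer of 18 mice was amplified, biotin labelled and hybridized to Illumina mouse-6 v1.1 beadchips. The authors extracted signals with Beadstudio as the mean over the beads of a probe and normalized them by the mean signals of the arrays. The deposited values are on the log2 scale and every array has the same mean, 6.69. Probes (46632) were named through the platform annotation and RefSeq, 29976 of them with 1 symbol, 10 with several and 16646 with none. The 11305 probes of highest mean, the number of expressed genes in the methods, were tested with limma 3.58.1 (R 4.3.3) and Benjamini-Hochberg adjustment, with a threshold of 0.05, and a gene stood for its brightest probe. Genotype was fitted alone, litter with genotype, and their interaction with both. Correlations between arrays ran from 0.981 to 0.995. The precision is limited by the number of arrays. The members and gene lists were chosen with earlier results of these data known. Values were given in full for Donson, for the 5 members with the smallest p for genotype and the 5 for litter, for the 4 brightest members and for examples of those not tested. Up to 4 genes by either p were named in other lists, and the 5 genes most like the members and the 5 most opposed. The genotype and litter fits were tested on simulated data with known changes and independent noise for each probe. No genotype difference that varied between litters was simulated.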

Additional observations from a re-analysis of the deposited data

Results flagged for a closer look

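In 2 of 86 groups of 9 mice (43 genes with a probe, 2 genotypes) 1 mouse stood apart by Dixon's test at the 95% level, where chance would give about 4.3. For Pold2, a polymerase delta subunit, Ts1Cje 1 of litter 1 had a log2 signal of 10.03, and the next Ts1Cje mouse had 10.30. For Pole, the catalytic subunit of polymerase epsilon, Ts1Cje 5 of litter 2 had 7.90, and the next had 8.37.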

How the results depend on the processing

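The count of members called for genotype was 0 as reported and 1 with quantile normalization, with arrays shifted to the same median, with the 8000 brightest probes, with the tested probes of each gene averaged and with litter as a block (replicate block). In each case the member was Donson, with log2 differences of 0.39, 0.40, 0.43, 0.43 and 0.43 and adjusted p-values of 0.0359, 0.0295, 0.0449, 0.0479 and 0.0101. Under the other 9 settings Donson had an adjusted p between 0.0515 and 0.949, the latter without litter 2, where its difference was 0.32. The median difference of the members with 2 copies stayed between -0.13 and -0.03. Without the 2 euploid mice whose source label names cerebellum, this median was -0.11. Donson then had a difference of 0.39 and an adjusted p of 0.158 (limma). The count called for litter ran from 22 to 26, out of 35 members unless the set of probes changed. It was 24 of 31 with the 8000 brightest probes, 26 of 39 with the 15000 brightest and 23 of 43 with no filter on dim probes. Of all probes 27.1%, 28.4% and 10.6% were called under these settings. The median correlation ran from 0.38, over the 43 members with no filter, to 0.61. No median over all pairs of genes is given for these other settings. The settings without the 2 euploid arrays of smallest spread (both of litter 2) for litter and correlation were chosen after seeing the data. So were all those for the lists of further replication, chromatin replication, G1/S and mitosis genes. In these lists 30 of 53 tested genes were called for litter as reported. Under the settings the count ran from 26 of 47 with the 8000 brightest probes to 34 of 59 with the 15000 brightest. With no filter on dim probes it was 32 of 78. Replicate numbers follow accession order and pair no mice. Leaving out mice removes residual degrees of freedom, and dim probes limit 8 members.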
